A study of Mus musculus with 3 samples.

Results

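Mucosal surfaces protect themselves with proteins that epithelial cells release onto the surface, and 8 genes of this kind were followed in a mouse model of diffuse-type gastric cancer. They were Sftpd, Slpi, Lcn2, Wfdc2, Pigr, Dmbt1, Lyz1 and Vnn1. The genes were found as all gene spots that carry one of these names in the array files, 11 probes in all, and they are 8 of 19434 genes tested. They were picked as a group with the tumour-over-normal ratios already known, so those ratios are given as a description, without a test. All 11 probes passed the filter on dim probes, the Vnn1 probe through the tumour channel alone.

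Slpi and Wfdc2 are small proteins with WAP domains, and Slpi inhibits neutrophil serine proteases. Sftpd is a collectin, a lectin that binds microbial sugars, and Dmbt1 is a scavenger receptor cysteine-rich (SRCR) glycoprotein that binds bacteria and is released into mucus. Lcn2 is a lipocalin that withholds iron from bacteria by binding their siderophores, and Lyz1 is the lysozyme of Paneth cells, which cleaves bacterial cell walls. Pigr is the receptor that carries polymeric immunoglobulin A across the epithelium and is shed as secretory component. Vnn1, a pantetheinase that releases cysteamine from pantetheine, is anchored in the cell membrane, so it is secreted in a looser sense than the others.

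Expression was measured on 3 two-colour arrays, each with 1 primary tumour in red and the same pool of normal gastric mucosa in green. The tumours came from Atp4b-Cre+;Cdh1loxP/loxP;Trp53loxP/loxP mice, and the pool from 5 Atp4b-Cre-;Cdh1loxP/loxP;Trp53loxP/loxP mice, all at 12 months of age. Both floxed alleles are thus present in tumours and controls, and Cre, driven by the promoter of the parietal cell gene Atp4b, is present in the tumours alone. Stroma was removed mechanically in 30 mM EDTA-2Na from the normal mucosae, and no such step is described for the tumours. A fold difference in such bulk tissue can come from more cells of a type or from more RNA per cell, and these cannot be told apart. The pool is 1 sample, so the spread among normal mice was not measured, and SD values below describe 3 tumours only. The dyes were not swapped, so a dye effect on a probe cannot be told apart from a difference between tumour and pool.

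Across the arrays, 64.0 to 66.8% of gene spots in red and 52.5 to 54.2% in green were well above background. Cdh1 had a log2 ratio of -4.24 ± 0.85 (SD, n = 3) and fell (limma, adjusted p = 0.00186), whereas Trp53, at -0.21 ± 0.15, did not pass. Whether these probes lie in the deleted parts was not determined. Over all genes the median log2 ratio was 0.05. Of the genes tested, 9.33% were called higher and 9.68% lower, 19% in all, at an adjusted p under 0.05 with at least a 2-fold difference. Of 9 markers of gastric surface and gland cells 9 fell, with a median log2 ratio of -5.85, and of 13 general epithelial markers 6 rose and 4 fell.

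The probes are shown where their sequence bears on a value. Sftpd and Wfdc2 are each read by a pair of probes that gave different ratios, and Pigr by a pair that disagreed in direction. The 2 Sftpd probes lie 2.10 kb apart on the minus strand of mm9 chromosome 14, at chr14:41985664-41985723 and chr14:41987767-41987826. They are shown because they read separate stretches of the transcript, and the first is the brighter.
Sftpd brighter probe: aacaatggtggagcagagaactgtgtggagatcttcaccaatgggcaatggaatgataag
Sftpd dimmer probe: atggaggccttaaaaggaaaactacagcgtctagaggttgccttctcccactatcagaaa
The Pigr probes follow, with every run of GAA in capitals. The probe at chr1:132748041-132748100 (plus strand) is shown by its first 30 bases. The other probe that the files name Pigr is placed by them at chrX:118770552-118770611 (minus strand) and is a purine repeat. It is set beside 3 probes with other gene labels on 3 other chromosomes that are built the same way, at chr17:81734642-81734701, chr5:59341227-59341286 and chr7:123731567-123731626.
Pigr chromosome 1 probe: tcatgattttcagatgagaagagatgtttc
Pigr repeat probe: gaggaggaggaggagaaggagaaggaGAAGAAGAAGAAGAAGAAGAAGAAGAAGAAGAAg
LOC100048656 probe: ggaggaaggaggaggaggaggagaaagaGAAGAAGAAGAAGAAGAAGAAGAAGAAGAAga
Gm6940 probe: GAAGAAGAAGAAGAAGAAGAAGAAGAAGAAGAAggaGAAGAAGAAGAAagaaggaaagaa
Gcm1 probe: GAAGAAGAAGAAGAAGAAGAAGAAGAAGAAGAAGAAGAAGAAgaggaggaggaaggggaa
Of all probes, 23 held no base other than A and G, and 6 of these, the Pigr repeat probe among them, had at least 8 GAA in a row.

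In the tumours 7 of the 8 genes were called higher, beside the 9.33% of all genes called higher, a count that the choice of members fixes. Pigr was the exception when represented by its brightest probe, which is the repeat. With the 23 probes of only A and G left out, a choice made after seeing the data, 8 of 8 were called higher. The median of the 8 log2 ratios was 3.71, from -0.81 for Pigr to 5.65 for Sftpd, and Sftpd ranked 6 among all 19434 genes by log2 ratio.

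**Figure D1:**
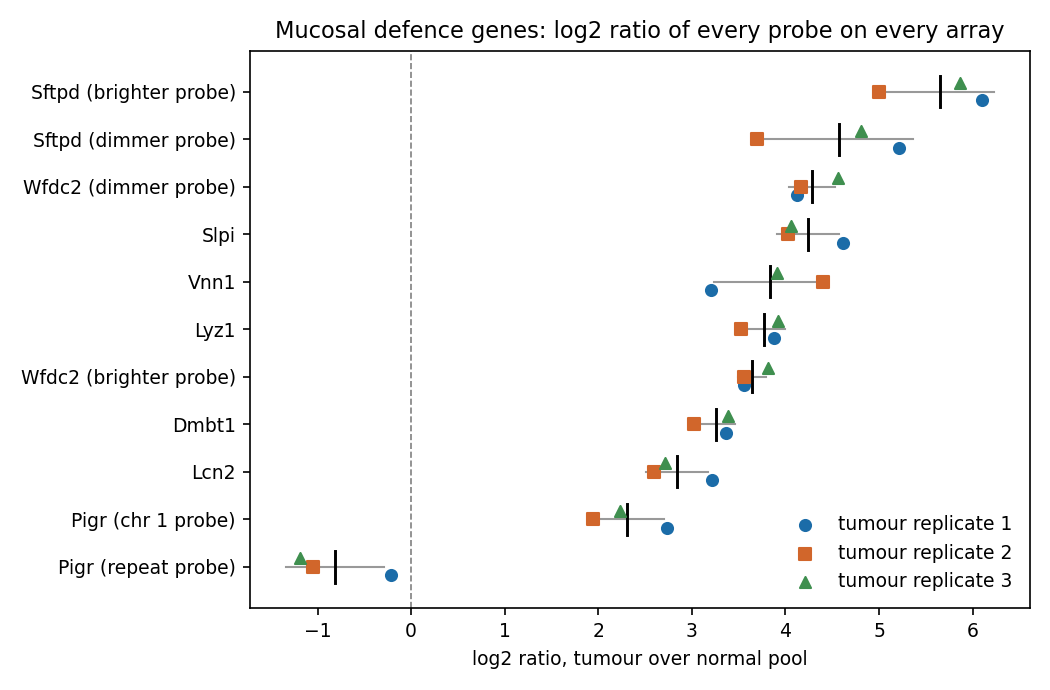
The log2 ratio of tumour over normal pool on the x axis is plotted for the 11 probes of the 8 genes, with 1 point for each of the 3 tumours, a black tick at the mean and a grey bar of 1 SD on each side. Every probe except the Pigr repeat probe lies above 0 on every array, from 1.94 for the chromosome 1 probe of Pigr to 6.10 for the brighter Sftpd probe.

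Among the protease inhibitors, Slpi, at chr2:164179849-164179908 on the minus strand, had log2 ratios of 4.62, 4.03 and 4.06 in tumour replicates 1, 2 and 3. Its mean was 4.24 ± 0.33 (SD, n = 3), an 18.9-fold difference that ranked 33. Its scanner signal was 33738, 30440 and 22082 in the tumours and 433, 417 and 345 in the pool. The tumour signal was lowest in replicate 3, where the pool signal was lowest too. Raw red and green signals are on separate scales, so tumour and pool are compared by the normalised ratio alone.

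Wfdc2 is read by 2 probes on the plus strand of the same chromosome, 4.33 kb apart. The brighter, at chr2:164393947-164394006, had log2 ratios of 3.55, 3.56 and 3.82 and a mean of 3.64 ± 0.15 (SD, n = 3), or 12.5-fold, which ranked 68. This was the smallest SD of the 8 genes. Wfdc2 is also a marker of metaplastic mucous cells of the stomach, and of 9 other such markers 3 rose and 3 fell, with a median of -0.07. The dimmer, at chr2:164389616-164389675, gave 4.12, 4.16 and 4.56, with a mean of 4.28 ± 0.24 (SD, n = 3), or 19.5-fold. The brighter probe's ratio was thus lower by 0.64 ± 0.10 on the log2 scale, and it was lower on all 3 arrays. Tumour signals at the brighter probe were 63892, 83175 and 98039 against 1552, 1409.9 and 1477 in the pool. Another probe, which the files label LOC100045919, covers chr2:164393986-164394045 on the same strand and so overlaps the brighter Wfdc2 probe, which starts 39 bases upstream. Its log2 ratios were 1.00, 0.61 and 1.39 (mean 1.00 ± 0.39), all below those of the Wfdc2 probe it overlaps.

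Slpi and Wfdc2 lie in the WAP gene cluster of chromosome 2, where their probes are 210 to 214 kb apart. In the window from 250 kb before to 250 kb after this pair, 19 other gene names were tested, the overlapping LOC100045919 among them. Of these 1 rose, the ubiquitin-conjugating enzyme gene Ube2c (1.26 ± 0.02, limma adjusted p = 0.00130), and 1 fell, the pancreatic transcription factor gene Rbpjl (-2.20 ± 0.46, adjusted p = 0.00239). Both were named after their values were seen. The median of the 19 was -0.04. Pancreatic acinar markers fell in 5 of 7 as well, with a median of -4.31, and their part in the value of Rbpjl was not tested.

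Of the microbe-binding proteins, Sftpd had the largest difference. Its brighter probe gave log2 ratios of 6.10, 4.997 and 5.86, with a mean of 5.65 ± 0.58 (SD, n = 3), or 50.3-fold. Its dimmer probe gave 5.21, 3.69 and 4.81, with a mean of 4.57 ± 0.79, or 23.8-fold. Tumour replicate 2 was the lowest at both, and the brighter probe read higher by 1.08 ± 0.21 and did so on all 3 arrays. The brighter probe's signal was 46644, 19441 and 39853 in the tumours against 209.8, 135 and 169 in the pool, and the dimmer probe's was 9753, 3789 and 8931 against 78.4, 58.6 and 75.5. In both channels the second array was the lowest.

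Sftpd is best known from lung, where alveolar cells make it. Of 12 markers of alveolar and airway cells on the array 5 were tested and 1 passed, Napsa (2.02 ± 0.88, adjusted p = 0.0124), which encodes an aspartic protease and whose pool signal was clear of background on 1 array only. The defining surfactant genes Sftpa1, Sftpb and Sftpc were not well above background in either channel on any array, and neither were Nkx2-1, Scgb3a2, Ager and Slc34a2. The collectin Colec12, a scavenger receptor of endothelium, was the only one of 7 tested collectin and surfactant genes to be called, at least 2.04-fold higher (log2 ratio 1.03 ± 0.25, adjusted p = 0.00538). Its ratio was 0.89 without replicate 1 and 0.99 with tested genes centred on 0, both under the 2-fold limit. All 7 were called with Agilent's processed signals or a normexp offset of 0. Median centring called 3, the data without replicate 1 called 2, and centring on tested genes called 0. Of the 7, 5 passed the filter through the tumour channel alone, and the list median of 0.83 was 0.09 with dim probes kept and -0.31 in the authors' deposited table.

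Dmbt1, at chr7:138265063-138265122 on the plus strand, had log2 ratios of 3.37, 3.02 and 3.38, a mean of 3.26 ± 0.20 (SD, n = 3), or 9.57-fold, and ranked 106. Its pool signal of 1890.3, 1857 and 1773 varied little, and its tumour signal was 69841, 76303 and 87555. Of 16 other genes in a list of SRCR proteins, scavenger receptors and their relatives 6 rose and 0 fell, with a median of 1.00. The protease gene Prss12 (3.76 ± 0.63, adjusted p = 0.00133), the scavenger receptor gene Scara3 (2.89 ± 0.70, adjusted p = 0.00304) and the collagen-crosslinking oxidase gene Loxl1 (2.54 ± 0.59, adjusted p = 0.00285) had the largest ratios. By their known roles these members serve proteolysis, oxidant defence and matrix crosslinking rather than mucus. The list held 13 calls with processed signals, with offset 0 and with median centring.

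Lcn2, at chr2:32240199-32240258 on the minus strand, had log2 ratios of 3.22, 2.60 and 2.72, with a mean of 2.84 ± 0.33 (SD, n = 3), or 7.18-fold, which ranked 180. The ratios hide a large array-to-array difference. The tumour signal was 30795 in replicate 1 and 3897 and 4165 in replicates 2 and 3, so the highest was 7.90 times the lowest. The pool signal at the same spots was 1019, 149 and 173, a range of 6.83-fold, although the same pool RNA was on all 3 arrays. The ratio of Lcn2 thus varied far less than either channel.

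Over the 19186 probes that were clear of background in red and in green on every array, the median range of the pool signal was 1.09-fold. Only 46 of them, Lcn2 included, had a range over 2-fold, and 1 other had a range as large as that of Lcn2. The probes with a wider range in the tumours more often had the same array highest in both channels. This held for 35.8% of 15088 probes with a tumour range under 2-fold, 44.0% of 3457 from 2- to 4-fold, 56.2% of 450 from 4- to 8-fold and 66.0% of 191 from 8-fold up. The median pool range in these classes was 1.09, 1.10, 1.12 and 1.15-fold. The part of this in the ratio of Lcn2 was not tested. For the other members that were well above background in both channels, the pool range was at most 1.55-fold, at the brighter Sftpd probe.

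**Figure D2:**
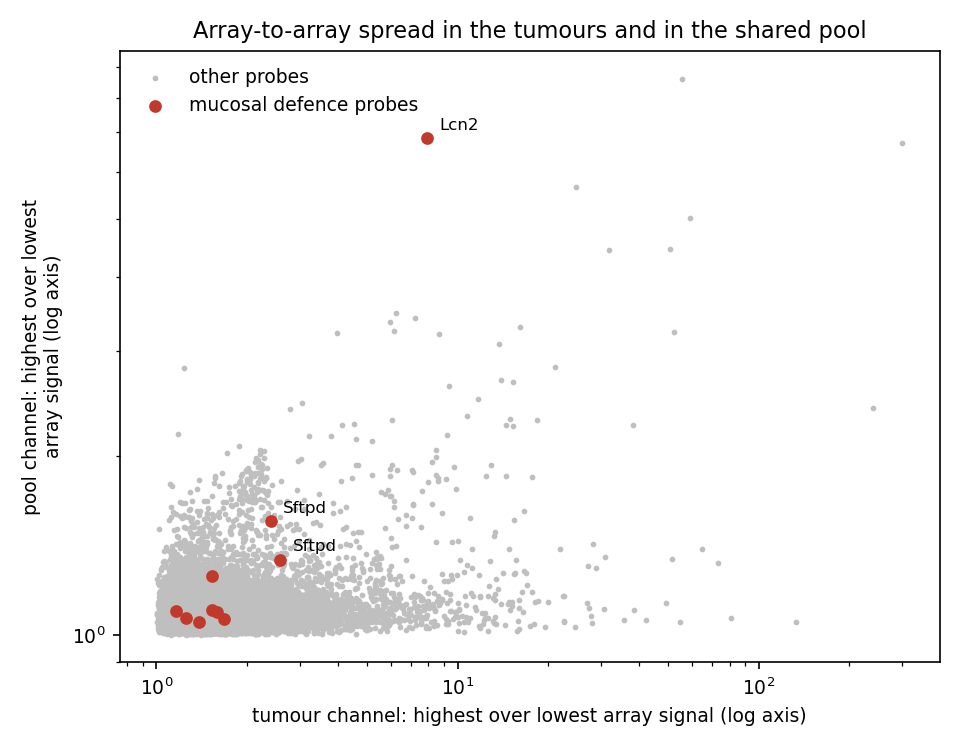
Each point is 1 probe that was clear of background in red and in green on every array, placed by its highest over lowest scanner signal among the 3 tumours (x, log axis) and among the 3 spots of the same pool (y, log axis). The Lcn2 probe, at 7.90 and 6.83, stands apart from the other mucosal defence probes in red and from nearly all other probes in grey.

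Neutrophils carry Lcn2 in their granules, and their markers were highest in replicate 1 as well. Summed signals of gene lists are given after normalisation within and between arrays, unlike the scanner signals of Lcn2 above. On that scale the sum of 15 neutrophil markers was 231664, 49350 and 59448 in tumour replicates 1, 2 and 3. In the pool it lay between 12976 and 13835. Of these markers 9 rose and 0 fell, with medians of 3.55, 0.89 and 1.91 per replicate. The part of neutrophils in the Lcn2 signal was not tested. Slpi was also highest by ratio in replicate 1, whereas Wfdc2 and Vnn1 were lowest or tied for lowest there.

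Of 11 other genes in a list of lipocalins, lipocalin receptors and the protease gene Mmp9, 0 rose and 2 fell, with a median of 0.01. The lipocalin receptor gene Slc22a17 fell (-1.29 ± 0.21, adjusted p = 0.00251), and so did the prostaglandin synthase Ptgds (-1.20 ± 0.56, adjusted p = 0.0168). The call of Ptgds was lost without replicate 1 (adjusted p = 0.0579) or replicate 2 (adjusted p = 0.0673), and neither gene was called with median centring (-0.21 and -0.48). The list held 5 calls with processed signals or offset 0 and 4 in the authors' deposited table.

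Lyz1, at chr10:116724862-116724921 on the minus strand, had log2 ratios of 3.88, 3.52 and 3.92, with a mean of 3.77 ± 0.22 (SD, n = 3), or 13.7-fold, and ranked 61. Its tumour signal was 10996, 13058 and 15197, and its pool signal 250.2, 258 and 263. Mice have a second lysozyme gene, Lyz2, made by macrophages and neutrophils, whose probe lies 5.69 kb away. The probes share no run longer than 6 of 60 bases, and their first 30 bases are shown. Only the probes were compared with each other, so whether either reads the other gene's transcript was not tested.
Lyz1 probe: ccaataaccacaggagcaaatctaatctca
Lyz2 probe: aacgttgtgagtttgccagaactctgaaaa
Lyz2 rose as well, by 2.51 ± 0.15 on the log2 scale (adjusted p = 0.000578), with 2.33, 2.59 and 2.60 per replicate, each below Lyz1 on the same array. Macrophage markers other than Lyz2 rose in 10 of 13 and fell in 0, with a median of 2.24. With Lyz2 the list of 14 had summed normalised tumour signals of 28412, 32333 and 32845 against 6140.5 to 7588 in the pool. Their part in the lysozyme values was not tested.

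Paneth cells make Lyz1, and 12 other lysozymes and Paneth cell products were tested, of which 4 rose and 1 fell, with a median of 0.62. Of the 12, 6 passed the filter through the tumour channel alone. The 5 calls became 8 with processed signals or offset 0, and 2 in the authors' deposited table or with both channels required to be above background. The matrix protease gene Mmp7, which activates defensins in Paneth cells, had the largest rise (3.99 ± 0.48, adjusted p = 0.000818). The defensin genes Defa3 (at least 2.26-fold, adjusted p = 0.00504) and Defa20 (at least 2.25-fold, adjusted p = 0.00332), named after their values were seen, also rose. Both belong to a family of near-identical genes, so their probes may read other members, and both were dim in the pool on every array. A second probe of each, at 0.38 for Defa3 and 0.006 for Defa20, did not pass the filter. The other tested Paneth cell markers, Defa1 (1.17 ± 0.97), Defa5 (0.80 ± 0.26), Itln1 (0.42 ± 0.80) and Ang4 (-0.61 ± 0.23), were not called. They too were named after their values were seen. The sperm lysozyme gene Spaca3 fell at least 4.26-fold (log2 ratio -2.09 ± 0.16, adjusted p = 0.000813). The 7 tested Paneth cell markers are all in this list. Their summed normalised tumour signals were 3164, 3316 and 10460, highest in replicate 3. The ratio of Lyz1 was nearly the same in replicates 1 and 3, at 3.88 and 3.92. The part of Paneth cells in the Lyz1 value was not tested.

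Pigr was read by 2 probes that disagreed. The chromosome 1 probe had log2 ratios of 2.74, 1.94 and 2.23, with a mean of 2.30 ± 0.40 (SD, n = 3), or 4.93-fold. Its tumour signal was 2309.6, 1988 and 2183 and its pool signal 116, 124 and 127. The repeat probe had -0.21, -1.04 and -1.18, with a mean of -0.81 ± 0.53, and was not called. The difference between the probes was -3.11 ± 0.26 and had the same sign on every array. Its signals were 51788, 35609 and 32452 in the tumours and 14875, 13605 and 14322 in the pool.

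The repeat probe was set beside the probes that share its repeat. The other 5 probes with at least 8 GAA in a row, on chromosomes 5, 7, 13, 17 and X, had log2 ratios from -0.44 to 0.95 on array 1, from -1.28 to -0.88 on array 2 and from -1.63 to -0.90 on array 3. The Pigr repeat probe lay inside each of these ranges, and the chromosome 1 probe lay above all of them. Like the Pigr repeat probe, all 5 had their highest ratio on array 1.

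**Figure D3:**
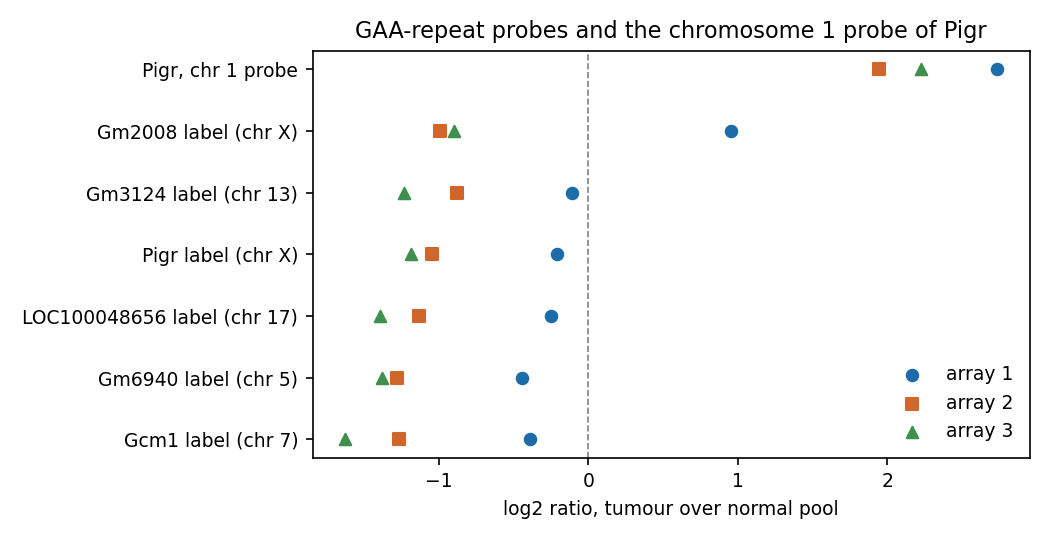
Log2 ratios of tumour over pool (x) on the 3 arrays are plotted for the 6 probes with at least 8 GAA in a row, named by their gene label and chromosome, and for the chromosome 1 probe of Pigr. The repeat probes labelled Pigr, LOC100048656, Gm3124, Gm6940, Gm2008 and Gcm1 lie between -1.63 and 0.95, below the chromosome 1 probe at 1.94 to 2.74.

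Secretory immunoglobulin A needs Pigr in the epithelium and plasma cells beneath it. Of 17 other secretory antibody genes 7 rose and 3 fell, with a median of 0.87. The joining chain gene Jchain rose (2.04 ± 0.45, adjusted p = 0.00277). So did the probe for Ighg, the heavy chain of immunoglobulin G and not of immunoglobulin A (4.99 ± 1.23, adjusted p = 0.00292). The 17 genes held no heavy chain of immunoglobulin A. The Ighg value was 4.36 without replicate 1, 5.59 without replicate 3 and 4.16 with the median of its probes. Derl3 (-2.19 ± 0.41, adjusted p = 0.00201), the chemokine gene Ccl28 (-1.45 ± 0.11, adjusted p = 0.00120) and Xbp1 (-1.12 ± 0.05, adjusted p = 0.00174) fell, while Xbp1 turned to 0.50 with median centring. Ccl28 and Xbp1 were named after their values were seen. Of 9 B and plasma cell markers 7 rose and 1, Derl3, fell. Their summed normalised signals were 8574, 18842 and 13035 in the tumours against 4447 to 5059 in the pool. Their part in the values above was not tested. The marker list shares Jchain, Mzb1 and Derl3 with the list above.

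Vnn1, at chr10:23624524-23624583 on the plus strand, was higher by at least 14.3-fold, since its pool signal was not well above background on any array. Its log2 ratios of 3.21, 4.40 and 3.91 gave a mean of 3.84 ± 0.60 (SD, n = 3), which rests on the offset added to the dim pool signal, so its rank is not defined. The tumour signal was 1480.5, 5348 and 3608, and the pool signal 49.6, 51.0 and 56.6. By ratio and tumour signal, replicate 1 was lowest and replicate 2 highest, the opposite by ratio of Sftpd, Lcn2 and Slpi, for which replicate 1 was highest and replicate 2 lowest. Of the 3 other genes tested within 250 kb 1 was called higher, Gm10063 (1.23 ± 0.25, adjusted p = 0.00344), named after its value was seen. Kidney tubule and liver cells also make Vnn1, and of 5 tested markers of these cells 0 rose and 2 fell.

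Vnn1 acts at the end of coenzyme A breakdown. Of 15 other genes of vanin and coenzyme A metabolism 0 rose and 1 fell, with a median of -0.22. That gene, Coasy, encodes the last enzymes of coenzyme A synthesis (-1.21 ± 0.13, adjusted p = 0.00201), and its sign turned to 0.13 with median centring. The list held 4 calls with processed signals, with offset 0 and with median centring, 3 in the authors' deposited table and 2 without replicate 1.

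**Figure D4:**
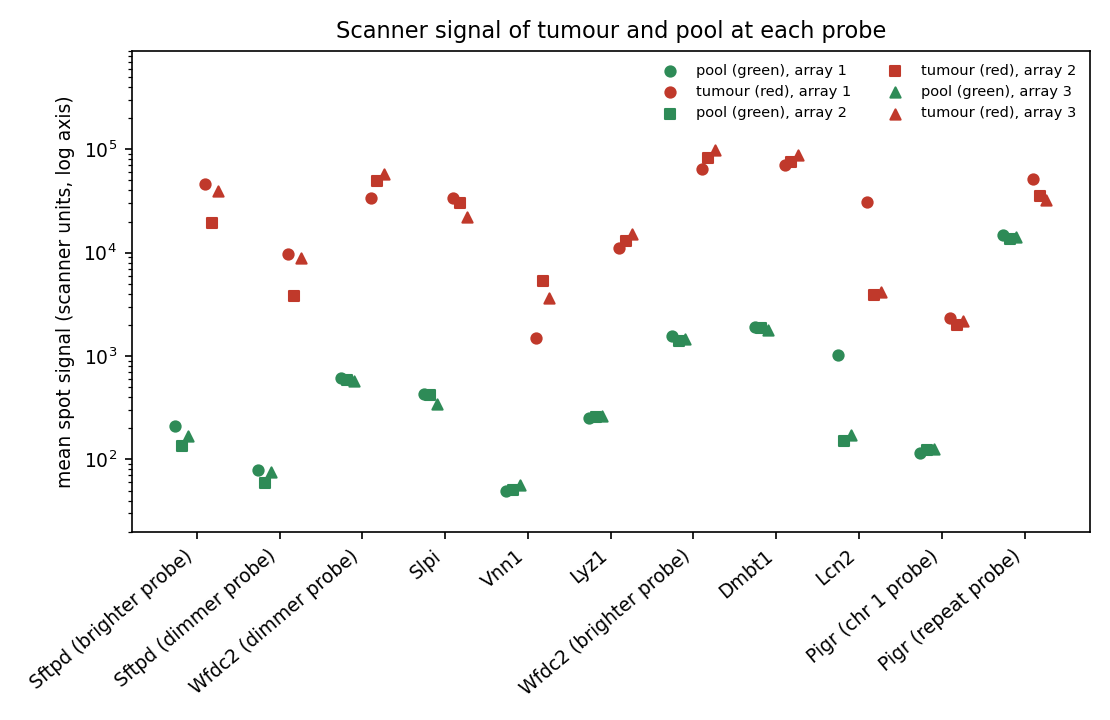
Scanner signal (y, log axis, mean spot intensity before background correction) of the tumour (red) and the pool (green) is plotted for the 11 probes on the 3 arrays, which differ in marker shape. The colours are on separate scales, so red lies above green even at the Pigr repeat probe, whose ratios are below 0, and the Lcn2 probe has the widest gap between arrays in both colours, with array 1 highest at 30795 in red and 1019 in green.

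Ordered by mean log2 ratio at the brighter probe, with the chromosome 1 probe for Pigr, 7 of the genes ran Sftpd, Slpi, Lyz1, Wfdc2, Dmbt1, Lcn2 and Pigr. Vnn1 has no place in this order, because its value is a bound: it was at 3.84 here, 5.29 with a normexp offset of 0 and 6.41 with Agilent's processed signals. These are ratios, since levels of different probes were not compared. Sftpd exceeded Slpi by 1.42 ± 0.42 (SD of the paired difference, n = 3). Slpi exceeded Lyz1 by 0.46 ± 0.30 on all 3 arrays, while the difference between Lyz1 and Wfdc2 (0.13 ± 0.18) was within its SD. Wfdc2 exceeded Dmbt1 by 0.38 ± 0.18, Dmbt1 exceeded Lcn2 by 0.41 ± 0.26 and Lcn2 exceeded Pigr by 0.54 ± 0.10, each on all 3 arrays. The place of Lcn2 rests on a pool signal that ranged 6.83-fold between arrays, and the effect of this on its place was not tested. In the authors' deposited table Dmbt1 and Lcn2 lay closer, at 3.24 and 3.13. The order depends on the probe, since the dimmer Sftpd probe exceeded Slpi by 0.34 ± 0.59 and the dimmer Wfdc2 probe exceeded it by 0.05 ± 0.51, both on 2 of 3 arrays and within the SD.

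The gene most like each member other than Vnn1 over the 3 arrays was the one with the smallest root mean square distance in log2 ratio among 11818 candidates. It was Timp1, a metalloprotease inhibitor, for Slpi (distance 0.11) and Cd14, a lipopolysaccharide co-receptor of macrophages, for Lyz1 (0.07). For Sftpd it was the cell cycle inhibitor gene Cdkn2a (0.20), for Wfdc2 the laminin gene Lama5 (0.15), for Dmbt1 the tubulin gene Tubb2b (0.11) and for Lcn2 Dpysl3 (0.17). For the chromosome 1 probe of Pigr it was the phospholipase gene Pla1a (0.08). With 3 arrays a small distance describes a similar set of 3 values and no more.

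The genes that the members work with or are regulated beside were followed as lists that do not hold the members. Of 24 other antimicrobial proteins 11 rose and 0 fell, with a median of 1.21 that was 0.21 with dim probes kept. They were led by the neutrophil calprotectin genes S100a9 (6.70 ± 1.06, adjusted p = 0.00112) and S100a8 (6.55 ± 1.44, adjusted p = 0.00221) and by the C-type lectin Reg1 (5.79 ± 0.56, adjusted p = 0.000558). S100a9 was at 6.12 and S100a8 at 5.74 without replicate 1, and S100a8 at 7.14 without replicate 2. The summed normalised tumour signal of this list was 231443, 65478 and 110861, so replicate 1 was again the highest, as for the neutrophil markers. The list shares S100a8, S100a9 and 3 other genes with those markers.

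Of 14 other WAP-domain proteins and protease inhibitors 3 rose and 2 fell, with a median of 0.03. Wfdc18, a WAP-domain protein, rose (2.61 ± 0.88, adjusted p = 0.00645), and Spink4, a gastrointestinal peptide of the Kazal family, fell (-2.86 ± 1.05, adjusted p = 0.00784). The cystatin Stfa1 rose at least 4.10-fold (adjusted p = 0.0297) but lost its call without replicate 1 (adjusted p = 0.0856), without replicate 3 (adjusted p = 0.137) and when dim probes were kept (adjusted p = 0.0550). Wfdc1 (1.91 ± 1.11, adjusted p = 0.0256) and Spint2 (-1.03 ± 0.22, adjusted p = 0.00473) were named after their values were seen. Wfdc1 was not called without replicate 1 (adjusted p = 0.0840) or replicate 3 (adjusted p = 0.106), and Spint2 was under the 2-fold limit without replicate 1 (-0.90), with processed signals and in the authors' deposited table (-0.92), with offset 0 (-0.93) and with the median of its probes (-0.76). Without replicate 1 the list held 2 calls and without replicate 3 it held 3, and Spint2 turned to 0.41 with median centring.

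Of 14 serine proteases of neutrophils, mast cells and epithelia 1 rose and 3 fell, with a median of -0.30. The neutrophil cathepsin G gene Ctsg rose at least 3.83-fold (adjusted p = 0.00855), while the kallikrein gene Klk1 (-2.58 ± 1.03, adjusted p = 0.00970) and the epithelial membrane protease gene Prss8 (-1.94 ± 0.23, adjusted p = 0.00115) fell. The other neutrophil proteases tested, Elane (0.26 ± 0.57, adjusted p = 0.403) and Prtn3 (0.29 ± 0.14, adjusted p = 0.0726), were not called. Both were named after their values were seen. Klk1 was not called without replicate 3 (adjusted p = 0.0608), and Prss8 was at -0.80 with median centring. The other that fell was Tmprss2 (-1.38 ± 0.88, adjusted p = 0.0346), named after its value was seen, which was not called without replicate 1 (-0.89) or replicate 2 (adjusted p = 0.0900).

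NF-kB and C/EBP factors are textbook regulators of several of these genes. Of 39 genes of NF-kB, IL-17, IL-22 and interferon-gamma signalling 9 rose and 0 fell, with a median of 0.39. The list held 17 calls with processed signals or offset 0 and 28 with median centring, where its median was 1.45. The cytokine gene Il1b had the largest ratio (3.29 ± 1.75, adjusted p = 0.0198), with 5.26, 2.68 and 1.93 per replicate. It was at 2.31 without replicate 1, at 3.97 without replicate 3 and not called without replicate 2 (adjusted p = 0.0548). The C/EBP genes Cebpd (2.08 ± 0.85, adjusted p = 0.0105) and Cebpb (1.96 ± 0.65, adjusted p = 0.00662) rose, both highest in replicate 1, and Cebpd was not called without replicate 3 (adjusted p = 0.0517).

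Of 20 PPAR, HNF and related epithelial transcription factor genes 1 rose and 7 fell, with a median of -0.55. The endodermal factors Foxa3 (-2.58 ± 0.29, adjusted p = 0.000909), Gata4 (-1.89 ± 0.60, adjusted p = 0.00609) and Foxa2 (-1.85 ± 0.50, adjusted p = 0.00422) fell, although Gata4 (-0.69) and Foxa2 (-0.60) were not called with median centring. The 1 that rose was the epithelial ETS factor gene Ehf (1.22 ± 0.42, adjusted p = 0.00856), named after its value was seen, which was at 0.99 without replicate 3.

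**Figure D5:**
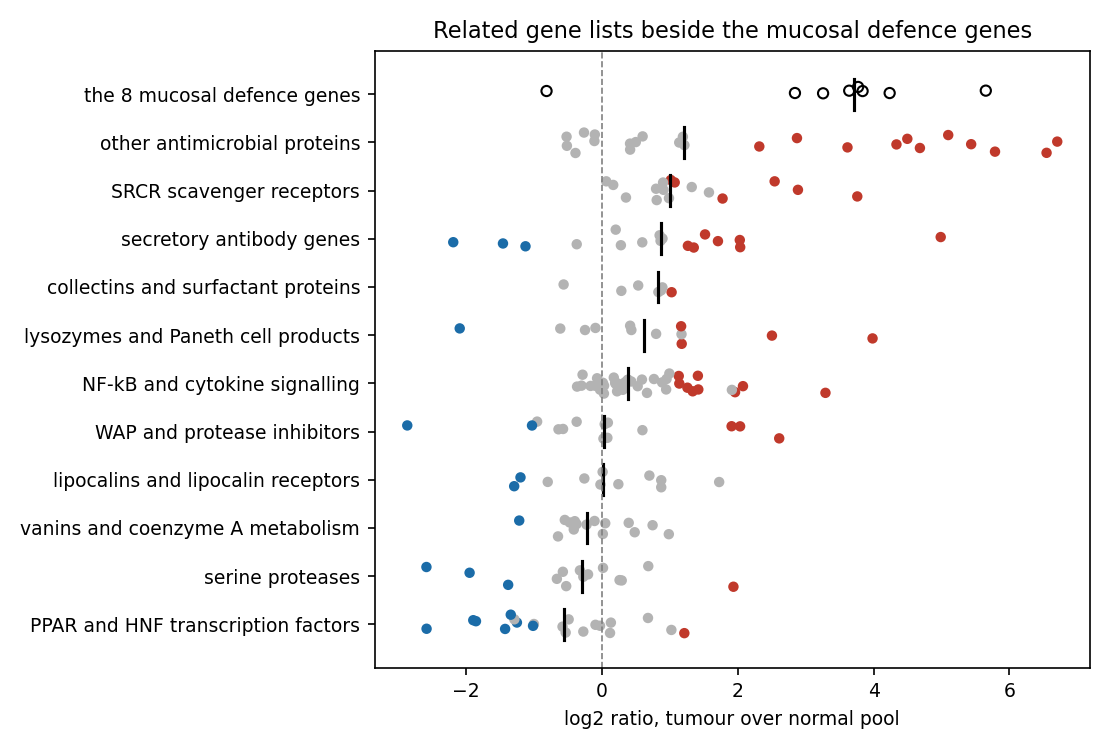
Each point is the log2 ratio (x) of 1 tested gene in 11 lists of related genes, red where called higher, blue where called lower and grey otherwise, with a black tick at the list median; open circles are the 8 mucosal defence genes, which were chosen on these ratios. The list medians run from -0.55 for PPAR and HNF transcription factors to 1.21 for other antimicrobial proteins, the latter at 0.21 with dim probes kept.

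Promoters are shown for the 3 members in which a search found a short letter pattern. RefSeq's table for GRCm38.p6 held the 250 bases before the start of 5 of the 8 genes. The C/EBP pattern TTGCNNAA, searched on both strands, matched in Lcn2, Slpi and Lyz1 and not in Wfdc2 and Pigr. The match, in capitals, begins 216, 241 and 209 bases before the start, in windows at chr2:32387740-32387989, chr2:164356508-164356757 and chr10:117292869-117293118, all on the minus strand. The sequences read 5′ to 3′ towards the start.
Lcn2 promoter: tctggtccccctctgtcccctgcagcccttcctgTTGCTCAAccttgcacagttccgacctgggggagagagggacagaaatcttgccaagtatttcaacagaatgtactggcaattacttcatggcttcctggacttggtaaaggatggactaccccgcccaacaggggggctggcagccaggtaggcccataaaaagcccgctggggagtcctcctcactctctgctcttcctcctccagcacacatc
Slpi promoter: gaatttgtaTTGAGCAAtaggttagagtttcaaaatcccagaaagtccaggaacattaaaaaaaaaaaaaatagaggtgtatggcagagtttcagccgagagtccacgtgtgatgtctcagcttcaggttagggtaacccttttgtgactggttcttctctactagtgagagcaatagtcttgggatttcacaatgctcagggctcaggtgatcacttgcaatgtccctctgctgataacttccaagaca
Lyz1 promoter: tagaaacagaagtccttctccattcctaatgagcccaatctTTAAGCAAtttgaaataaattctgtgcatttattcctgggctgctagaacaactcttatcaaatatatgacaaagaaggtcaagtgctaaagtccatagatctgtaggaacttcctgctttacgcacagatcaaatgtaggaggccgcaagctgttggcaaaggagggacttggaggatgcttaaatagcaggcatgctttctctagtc
Of 32851 promoters of this length 9.56% held the pattern. The patterns of STAT (TTCNNNGAA, 7.02% of promoters) and AP-1 (TGANTCA, 6.75%) and that of NF-kB (3.9%), on both strands, had 0 matches in the 5 member windows. A match or its absence describes the letters in this window and shows nothing about binding.

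The authors' deposited table, which gives log2 ratios from processed signals, held mean ratios of 6.28 and 5.84 at the brighter and dimmer Sftpd probes and 4.56 at Slpi. It held 4.07 at Lyz1, 3.77 and 4.56 at the brighter and dimmer Wfdc2 probes, 3.24 at Dmbt1 and 3.13 at Lcn2 in the authors' deposited table. For Pigr the authors' deposited table had 2.70 at the chromosome 1 probe and -0.91 at the repeat probe. Vnn1 was blank there on all 3 arrays.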

How the data were processed

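RNA (250 ng, integrity number above 7) of 3 tumours (Cy5) and 1 pool (Cy3) was hybridised to 3 arrays on 1 slide, scanned once. The deposited intensity values are mean spot signals and median local backgrounds from Agilent Feature Extraction, version 10.7.3.1 per the file headers and 9.5.3 per the submitters' processing notes. Its log10 ratio of red over green processed signals and the mm9 probe positions are as given per the file headers. The value table that the authors deposited matched that ratio on the log2 scale (within 0.01 for 99.8 to 99.9% of filled probes, medians -0.15, -0.13 and -0.11), so scale and direction are settled, with 48.3 to 49.6% of probes blank and the reason for blanks not given in the sources used here.

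Here, signals were corrected by normexp (offset 50) and loess in limma 3.58.1 under R 4.3.3, and control and outlier spots were left out. The offset pulls ratios of dim probes towards 0. Of 39429 probes 24176 were well above background on all 3 arrays in 1 channel. Accessions named 26055 probes through a RefSeq table of GRCm38 and 13374 kept the file's name. Each gene took its brightest kept probe. Ratios were tested against 0 with eBayes, two-sided, with Benjamini-Hochberg adjustment, and called at an adjusted p under 0.05 and at least 2-fold. For a gene dim in 1 channel on every array, "at least N-fold" divides by that channel's own signal or by the dimmest signal still well above background there, whichever is larger, after loess and Aquantile. Where the own signal is larger, as at Vnn1, the bound equals the fitted fold. Summed signals of gene lists were taken after normexp, loess and Aquantile. The p-values measure the spread between 3 tumours. The fit was also run on simulated data with known changes. These held no error of the shared pool and no dye effect, so that run cannot bear on those limits.

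The members and lists were chosen with earlier results of these data known. From each list the text names the called genes with the largest absolute log2 ratios, 3 at most, and says where a gene was named after its value was seen. Exon and UTR positions of the mm9 probes were not determined.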

Additional observations from a re-analysis of the deposited data

How the results depend on the processing

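Every member other than Pigr stayed higher in each alternative that gave it a value, and the limits come mainly from scaling and dim signal. The count of genes called was 3696, and 6817 with Agilent's processed signals, 5733 with a normexp offset of 0 and 8303 with median centring in place of loess. The members' median of 3.71 was 3.92, 3.93 and 4.94 under these. Median centring moved the median of all genes to 0.77 and the 7 other members up by 1.05 to 1.59, and 93.3% of calls were then higher, against 49.1%. Leaving out 1 replicate gave 3436 to 3607 calls and members' medians of 3.62 to 3.70. Pigr turned to 0.92 with median centring, 0.75 with the median of its probes and 2.30 without the probes of only A and G, an alternative chosen after seeing the data. Coasy turned to 0.13 with median centring. Members called higher numbered 6 in the deposited table and among probes above background in both channels, where Vnn1 has no value. Vnn1, dim in the pool, was at 6.41 with processed signals and 5.29 at offset 0. Of 28 named list genes, 16 moved over 1.5-fold with processed signals, 14 at offset 0 and 27 with median centring, as did 12 of 24 in the deposited table. The vanin (0.67), serine protease (0.45) and transcription factor (0.32) list medians turned positive with median centring. With dim probes kept, the list medians of other antimicrobial proteins (1.21), secretory antibody genes (0.87), collectins (0.83) and lysozymes (0.62) were 0.21, 0.28, 0.09 and 0.42, and in the deposited table the first was 3.77 and the third -0.31. The cause was not tested. A slide block was not run, with 1 slide and 1 scan. No paired analysis was possible because the arrays form 1 group.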
